A study of Mus musculus with 2 samples.

Results

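The miR-181 family was followed in hearts of mouse embryos at day 11.5, where microRNA sequencing had counted reads on miRNA genes. Its members were chosen by name, though with earlier results of these data known. They are Mir181a-1, Mir181a-2, Mir181b-1, Mir181b-2, Mir181c and Mir181d, 6 of the 1973 genes in the count tables. The study held 1 group of 2 libraries, biological replicates 1 and 2, both whole hearts of strain B6NCrl, with male and female embryos pooled, no treatment named, and RNA selected below 30 nt. Replicate 1 pooled hearts of 109 embryos; the labels give no such number for replicate 2. With 1 group there was no contrast between conditions, so the questions were at what level each locus was read, how the loci stood to each other, and how far the libraries differed.

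A miRNA gene is transcribed as part of a longer RNA that folds into a hairpin, from which a 5p and a 3p strand are cut. 1 of them, loaded into an Argonaute protein, pairs with messenger RNAs mainly through its seed, bases 2 to 8 from the 5′ end, and lowers their translation and stability. miR-181 miRNAs are best known in blood and immune cells, where miR-181a tunes the response of developing T cells to antigen. In the vascular wall miR-181b is known to dampen NF-kappa-B signalling in endothelial cells, and in heart muscle miR-181c has been found in mitochondria.

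The mature sequences show what the members share and where they part. All 6 members matched RefSeq entries on GRCm38.p6, with 12 mature entries that hold 10 distinct sequences. They are printed 5′ to 3′ with the seed in capitals, the 5p strands first.
miR-181a-5p (Mir181a-1 and Mir181a-2): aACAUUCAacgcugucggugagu
miR-181b-5p (Mir181b-1 and Mir181b-2): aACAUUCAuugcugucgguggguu
miR-181c-5p (Mir181c): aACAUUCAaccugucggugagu
miR-181d-5p (Mir181d): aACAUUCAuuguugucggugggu
miR-181a-1-3p (Mir181a-1): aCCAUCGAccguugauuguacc
miR-181a-2-3p (Mir181a-2): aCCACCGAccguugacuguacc
miR-181b-1-3p (Mir181b-1): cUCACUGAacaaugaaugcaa
miR-181b-2-3p (Mir181b-2): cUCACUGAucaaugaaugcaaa
miR-181c-3p (Mir181c): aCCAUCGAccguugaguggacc
miR-181d-3p (Mir181d): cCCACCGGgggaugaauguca

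All 4 distinct 5p sequences carry the seed ACAUUCA, and among 1738 mature entries of the table it occurred in these 6 genes and in no other. The 3p strands split into 4 seeds: CCAUCGA in Mir181a-1 and Mir181c, UCACUGA in both Mir181b genes, CCACCGA in Mir181a-2 and CCACCGG in Mir181d. None of these was found in a gene outside the family. Counted from the 5′ end, miR-181b-5p and miR-181d-5p differed by a single substitution, C12U, over 23 aligned bases. miR-181a-5p and miR-181c-5p were identical over 22 aligned bases with 1 base left unpaired in the alignment. The 5p strands thus form an a/c pair and a b/d pair, and each cluster on the genome holds 1 gene of each kind.

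The members lie in 3 clusters (GRCm38, the build also called mm10; positions counted from 1). On chromosome 1, Mir181a-1 (ENSMUSG00000065565.1) lies from 137966455 to 137966541 and Mir181b-1 (ENSMUSG00000065458.1) from 137966639 to 137966718, with 97 bases between them. Both lie in an intron of Gm4258, annotated as a processed transcript; Mir181b-1 also lies in an exon of the lincRNA A430106G13Rik, which Mir181a-1 overlaps in part. On chromosome 2, Mir181a-2 (ENSMUSG00000065423.1) lies from 38852735 to 38852810 and Mir181b-2 (ENSMUSG00000065578.1) from 38853830 to 38853918, with 1019 bases between them. No annotated same-strand gene holds them in GENCODE M21; on the opposite strand they fall in an intron of Nr6a1, a nuclear receptor gene, and Mir181b-2 in an exon of Gm44144, a model still to be experimentally checked. On chromosome 8, Mir181c (ENSMUSG00000065483.1) lies from 84178873 to 84178961 and Mir181d (ENSMUSG00000076338.1) from 84178716 to 84178787, 85 bases apart, both in an intron of Nanos3, a gene known for its role in germ cells.

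**Figure D1:**
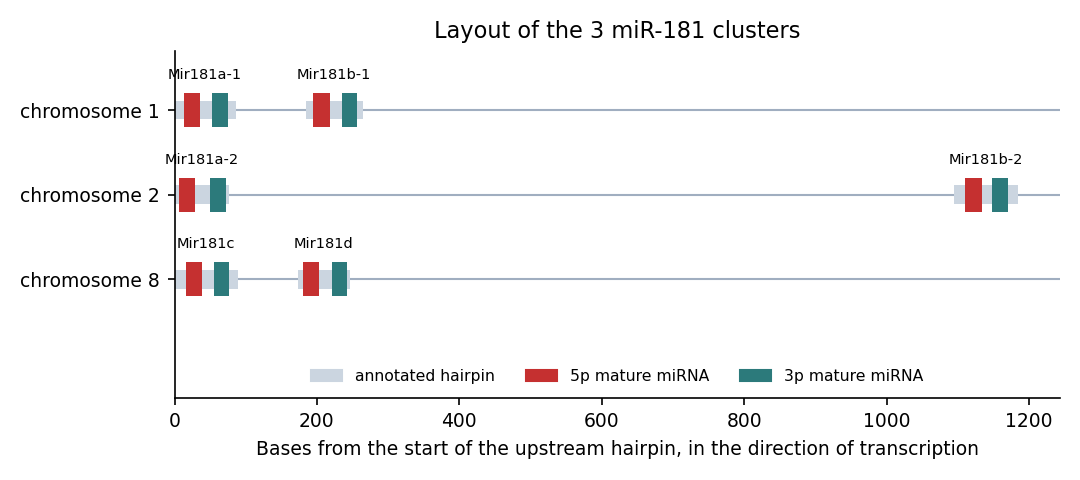
Layout of the 3 miR-181 clusters, with bases from the start of the upstream hairpin on the x axis and 1 line per chromosome; grey bars are annotated hairpins, red bars the 5p and teal bars the 3p mature miRNAs. The hairpins are 97 and 85 bases apart on chromosomes 1 and 8 and 1019 bases apart on chromosome 2.

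What a count on each locus can stand for differs between the members, which the hairpins of the Mir181a and Mir181b genes make visible. In capitals is the longest run each shares with the other gene of the same 5p sequence, printed 5′ to 3′ from RefSeq.
Mir181a-1: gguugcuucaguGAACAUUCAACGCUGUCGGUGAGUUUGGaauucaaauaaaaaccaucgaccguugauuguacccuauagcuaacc
Mir181a-2: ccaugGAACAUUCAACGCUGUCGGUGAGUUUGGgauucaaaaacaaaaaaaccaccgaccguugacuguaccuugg
Mir181b-1: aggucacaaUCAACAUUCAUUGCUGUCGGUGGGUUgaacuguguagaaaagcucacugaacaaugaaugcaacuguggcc
Mir181b-2: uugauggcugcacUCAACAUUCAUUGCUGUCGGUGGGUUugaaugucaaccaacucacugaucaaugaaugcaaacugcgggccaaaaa

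The shared run was 28 bases in the Mir181a genes and 26 bases in the Mir181b genes, and in each it held the whole 5p strand. Of the 20-base windows within the 5p strand, 4 of 4 in the Mir181a genes and 5 of 5 in the Mir181b genes recurred in the other gene. Within the 3p strands of these 4 genes none recurred in another of the 1005 hairpins in the table (0 of 3 windows in Mir181a-1, Mir181a-2 and Mir181b-2, 0 of 2 in Mir181b-1). Only exact matches were sought. The 3p strands of the Mir181a genes differ at 2 of 22 aligned bases, those of the Mir181b genes at 1 of 21. How reads with a mismatch were placed is not known here. In the Mir181d hairpin 0 of 53 windows recurred. The Mir181c hairpin was not searched, and Mir181c is called single-locus by its name. Each of its 2 mature sequences was listed for 1 locus and occurred in 0 of the 1005 hairpins. Copies elsewhere in the genome were not sought. The tables hold multimapping reads in a row of their own, which held 33.8% (replicate 1) and 33.2% (replicate 2) of the reads mapped, and by that layout whole reads of miR-181a-5p or miR-181b-5p would be counted on no gene. Values for the 4 Mir181a and Mir181b genes, called multi-locus below, are therefore uncertain. They do not measure miR-181a-5p or miR-181b-5p. The files do not split reads by strand of the hairpin, so no 5p or 3p level is given for any member.

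Depth and tissue bear on every value. The miRNA genes held 18467499 own-strand counts in replicate 1, which is 9.15 times the 2017294 of replicate 2, so replicate 1 gives the tighter intervals. Levels are counts per 1000000 of those totals (CPM), a level of at least 1 CPM in both libraries is called detected, and 419 genes met that. The 3 heart muscle miRNAs encoded in myosin genes were all detected, at 58391 CPM summed in replicate 1 and 63138 CPM in replicate 2. Of 7 neural marker genes in the table, 2 were detected. Mir137, the only single-locus gene among them, was among those, with 24.7 and 23.3 CPM in replicates 1 and 2. Mir9-2, Mir124a-1 and Mir124a-3 had 0 counts in both libraries, but they are multi-locus by name, so their 0 does not show that the miRNAs were absent. For reads that fall on 1 gene, a count of 0 allowed up to 0.162 CPM in replicate 1 and 1.49 CPM in replicate 2. The 2 libraries are named as biological replicates, with no word on litters, so their SD may understate the spread between hearts.

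All 6 members were detected in both libraries, where 419 of all 1973 genes were, and the pair on chromosome 8 had the most counts placed on it. Mir181c had 45221 counts in replicate 1 and 4774 in replicate 2, which is 2449 CPM (exact 95% Clopper-Pearson interval 2426 to 2471) and 2367 CPM (2300 to 2435), or 2408 ± 58.1 CPM (SD, n = 2). Mir181d had 43046 and 4475 counts, at 2331 CPM (2309 to 2353) and 2218 CPM (2154 to 2284), or 2275 ± 79.6 CPM. The lower Mir181c value lay above the higher Mir181d value, so the libraries did not overlap, though the loci stood close together. In whole hearts, a small number of cells with much of a miRNA and many cells with little of it cannot be told apart.

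The multi-locus members followed at very different levels. For Mir181a-1, replicate 1 gave 19000 counts and replicate 2 gave 1928, at 1029 and 956 CPM, or 992 ± 51.7 CPM. Mir181b-2 had 10269 and 1231 counts, at 556 and 610 CPM, or 583 ± 38.3 CPM. Mir181a-2 had 2393 and 223 counts, at 130 and 111 CPM, or 120 ± 13.5 CPM. These 3 were separated from each other in both libraries. Mir181b-1, the lowest, rested on 183 and 16 counts, at 9.91 CPM (8.53 to 11.5) and 7.93 CPM (4.53 to 12.9), or 8.92 ± 1.40 CPM, and its libraries could not be separated at this depth.

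**Figure D2:**
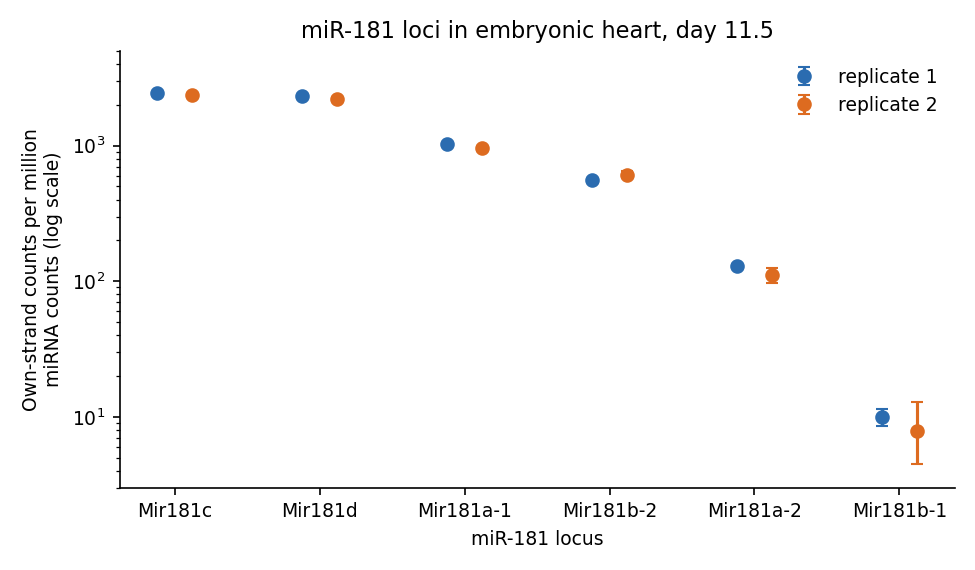
Own-strand counts per 1000000 miRNA counts (log scale) for each miR-181 locus, replicate 1 in blue and replicate 2 in orange, with exact 95% Clopper-Pearson intervals that cover counting error only. Mir181c and Mir181d stand above 2200 CPM, while Mir181b-1 stands below 10 CPM with the widest intervals.

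Together the family took 0.650% of miRNA counts in replicate 1 (120112 counts, exact interval 0.647 to 0.654%) and 0.627% in replicate 2 (12647 counts, 0.616 to 0.638%), or 0.639% ± 0.017 (SD, n = 2). Without the 4 multi-locus members the share was 0.468%. Mir181c made up 37.7% ± 0.07 of the family's counts and Mir181d 35.6% ± 0.32. Mir181a-1 made up 15.5% ± 0.41, Mir181b-2 9.14% ± 0.84, Mir181a-2 1.88% ± 0.16 and Mir181b-1 0.139% ± 0.018. The chromosome 8 pair thus held 73.3% ± 0.25 of what was counted, a share that leaves out any read mapping to both Mir181a genes or both Mir181b genes.

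Among the 419 detected genes, Mir181c ranked 60, Mir181d 64, Mir181a-1 87, Mir181b-2 103, Mir181a-2 193 and Mir181b-1 309. The genes nearest in mean level were found over the same 2 libraries. Around Mir181c they were Mir361 and Mir149 above and Mir188 and Mir542 below, from 2535 down to 2346 CPM. Around Mir181d they were Mir542, Mir101b, Mir107 and Mir541, from 2346 to 2204 CPM. Around Mir181a-1 they were Mir501, Mir434, Mir148a and Mir154, from 1027 to 969 CPM, and around Mir181b-2 they were Mir125b-2, Mir300, Mir302c and Mir429, from 595 to 543 CPM. Mir672, Mir412, Mir6240 and Mir204 stood next to Mir181a-2, from 121 to 107 CPM, and Mir295, Gm24245, Mir6945 and Mir3064 next to Mir181b-1, from 9.32 to 8.48 CPM. Every one of these gaps was smaller than the larger of the neighbours' SDs, up to 0.89 of it, so no member could be ranked firmly against them. Mir6240 reached its place with 212 CPM in replicate 1 and 25.8 CPM in replicate 2.

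**Figure D3:**
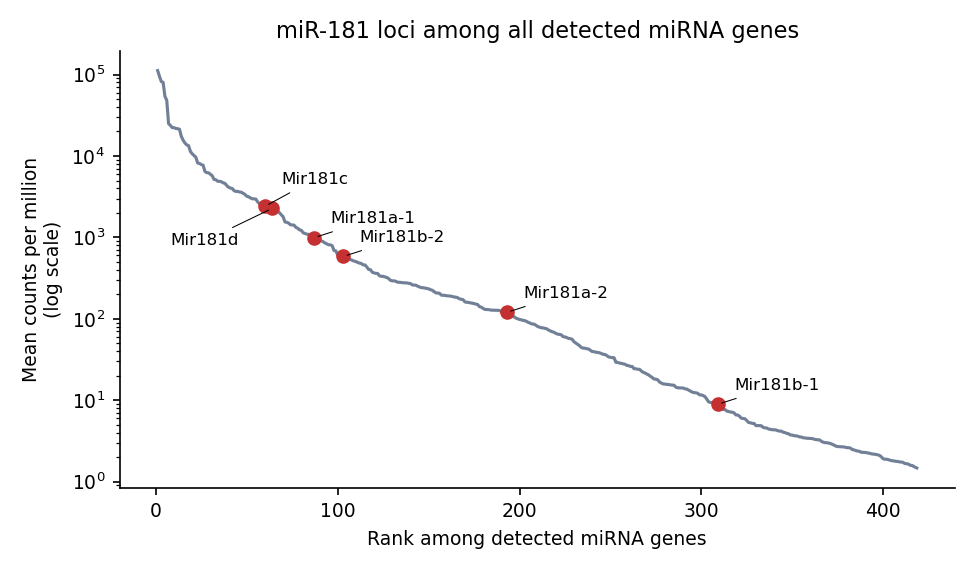
Mean CPM (log scale) of the 419 detected miRNA genes against their rank, as a grey line, with the 6 miR-181 loci as red points. The loci run from rank 60 for Mir181c to rank 309 for Mir181b-1.

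The loci were then set against each other within each library, so that depth cancels. A difference counts here as larger than the spread where the ratio lay on 1 side of equality in each library, each exact binomial interval left out equality and the mean log2 ratio exceeded its SD; No p is given across replicates, since an exact sign-flip test of 2 libraries (two-sided) cannot go below 0.5. All 15 pairs of members met this, even Mir181c over Mir181d at 1.05-fold in replicate 1 and 1.07-fold in replicate 2. The share of all pairs of detected genes that would meet it was not computed, so the count is not read as a trait of the family. The ratios compare counts, not amounts of RNA, since some small RNAs are captured and read more readily than others. Such a bias, if alike in both libraries, would not show in the SD.

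Mir181c and Mir181d, which share a cluster, were the most even pair. The Mir181c to Mir181d ratio was 1.05 in replicate 1 (interval 1.04 to 1.06) and 1.07 in replicate 2 (1.02 to 1.11), a log2 ratio of 0.08 ± 0.02. Mir181c exceeded Mir181a-1 2.43-fold (1.28 ± 0.04 on the log2 scale) and Mir181b-2 4.13-fold (2.05 ± 0.13). Against Mir181a-2 the ratio was 20.1-fold (4.33 ± 0.13), and against Mir181b-1 it was 272-fold (8.08 ± 0.19). The ratios of Mir181c over multi-locus genes set unlike counts against each other. Reads mapping to both Mir181a genes or both Mir181b genes are left out of the multi-locus counts, while Mir181c has no such shared mature sequence. The ratios over multi-locus genes therefore do not show how much more miRNA Mir181c gives.

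In the other clusters the a and b genes stood in opposite order. On chromosome 1, Mir181a-1 exceeded Mir181b-1 104-fold in replicate 1 (interval 89.8 to 121) and 120.5-fold in replicate 2 (74.0 to 211), a log2 ratio of 6.81 ± 0.15. On chromosome 2, Mir181b-2 exceeded Mir181a-2 4.29-fold in replicate 1 (4.10 to 4.49) and 5.52-fold in replicate 2 (4.78 to 6.40), a log2 ratio of 2.28 ± 0.26, and these intervals did not overlap. Genes with the same 5p sequence were also read unequally: Mir181a-1 exceeded Mir181a-2 8.29-fold (3.05 ± 0.09) and Mir181b-2 exceeded Mir181b-1 65.7-fold (6.04 ± 0.32). These 4 ratios rest on multi-locus genes throughout, so they compare the reads that could be placed on 1 gene.

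Summed by cluster, the chromosome 8 pair exceeded the chromosome 1 pair 4.68-fold (2.23 ± 0.03 on the log2 scale) and the chromosome 2 pair 6.66-fold (2.74 ± 0.09). The chromosome 1 pair exceeded the chromosome 2 pair 1.42-fold (0.51 ± 0.13), with 1.52-fold in replicate 1 and 1.34-fold in replicate 2. Mir181c and Mir181d together exceeded the 4 multi-locus loci 2.75-fold (1.46 ± 0.02). All 4 of these ratios were larger than the spread. They set unlike counts against each other, except for chromosome 1 over chromosome 2. Reads mapping to both Mir181a genes or both Mir181b genes are left out of the multi-locus sums, while Mir181c and Mir181d have no such shared 5p sequence. The ratios therefore do not show which cluster gives more miR-181.

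Other miRNA clusters give a scale for these ratios, as a description with no test. Among pairs of single-locus neighbours, Mir221 exceeded Mir222 1.99-fold, Mir23b exceeded Mir27b 10.2-fold, Mir23a exceeded Mir27a 64.4-fold and Mir143 exceeded Mir145a 76.8-fold. The 1.06-fold of Mir181c over Mir181d lay below these 4, which come from a fixed list. Neighbours outside that list were not compared as a set, so evenness is not read as a trait of this pair. Mir294 and Mir293, for example, lie close together on chromosome 7 and had mean levels of 259 and 246 CPM. Among 9 single-locus genes set over a multi-locus neighbour, the ratio ran from 1.08-fold (Mir27a over Mir24-2) to 183-fold (Mir29c over Mir29b-2, whose lower member had 32 counts and 1 count), with a median log2 ratio of 2.53. In all 9 the multi-locus gene had the lower mean, but for Mir27a over Mir24-2 and Mir192 over Mir194-2 the difference was not larger than the spread. The 112-fold gap between Mir181a-1 and Mir181b-1, both multi-locus, lay within that range.

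**Figure D4:**
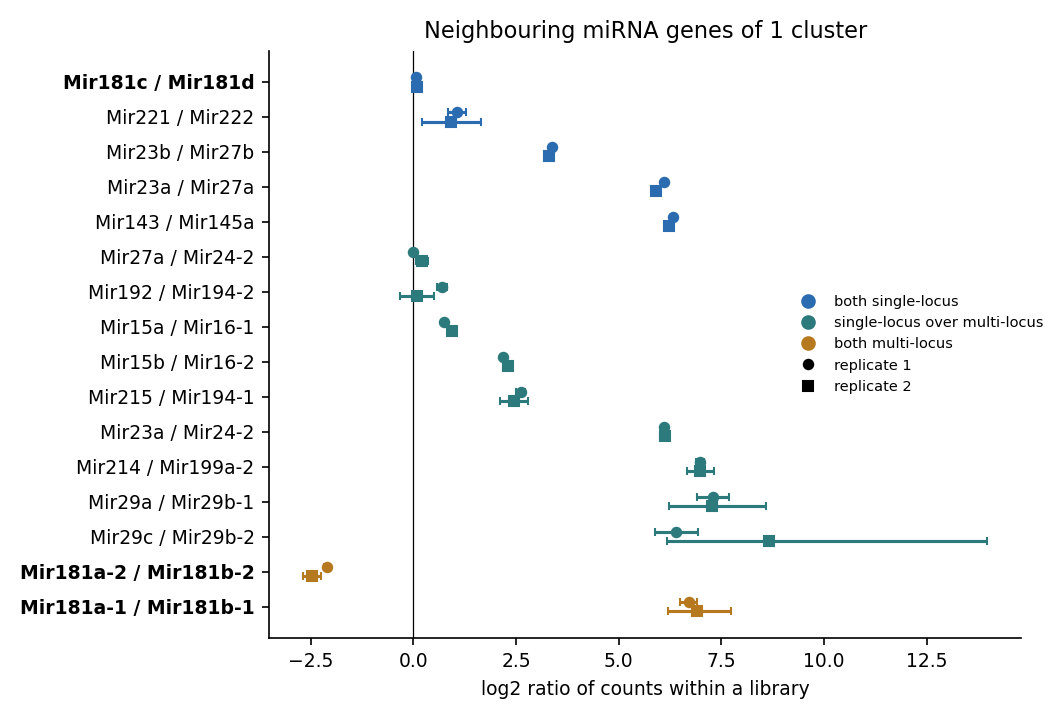
Within-library log2 ratios of counts for neighbouring miRNA genes of 1 cluster, circles for replicate 1 and squares for replicate 2, with exact 95% binomial intervals; miR-181 pairs are in bold, and colours separate single-locus and multi-locus genes. Mir181c over Mir181d sits near 0, while the Mir181a over Mir181b ratios lie on opposite sides of 0 on chromosomes 1 and 2.

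For each detected gene, the split of its counts over the libraries was set against the split of their totals (exact binomial test, two-sided), and p was adjusted by Benjamini-Hochberg over all 419. The test compares 2 libraries, not conditions, and covers counting error alone. Of the 6 members 3 passed an adjusted p of 0.05, where 29.4% of all detected genes did, and none reached 2-fold as well, where 2.63% did. Mir181a-1 was lower in replicate 2, with a ratio of 0.929 (interval 0.886 to 0.974; exact binomial, adjusted p = 0.00888), and so was Mir181d, with a ratio of 0.952 (0.923 to 0.981; adjusted p = 0.00741, exact binomial). Mir181b-2 was higher, with a ratio of 1.10 (1.03 to 1.16; exact binomial, adjusted p = 0.00993).

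The other 3 did not pass the exact binomial test, with ratios of 0.966 for Mir181c (interval 0.938 to 0.996; adjusted p = 0.0788), 0.853 for Mir181a-2 (0.740 to 0.979; adjusted p = 0.0764) and 0.800 for Mir181b-1 (0.448 to 1.34; adjusted p = 0.717). At an unadjusted p of 0.05, 5 members passed, where 34.8% of all detected genes did. With more counts the exact binomial test passes smaller differences. Shares over all detected genes, at the adjusted or unadjusted p, therefore do not show whether the members differ more than genes of like level. edgeR's exact test, which adds a dispersion shared by all genes and estimated from these libraries, called 0 of the 6, with 0 at an unadjusted p of 0.05, where it called 0.955% and 2.86% of the 419 genes. Within the family the share of Mir181b-2 was 8.55% in replicate 1 (exact interval 8.39 to 8.71%) and 9.73% in replicate 2 (9.22 to 10.3%), and these intervals did not overlap. Marker lists differed between the libraries too, in both directions. All 7 epithelial markers were lower in replicate 2 and passed the same exact binomial test, with summed levels of 2144 and 1488 CPM. The 3 heart muscle markers, the 2 smooth muscle markers and the endothelial marker Mir126a were all higher in replicate 2 and passed, with summed ratios of 1.08, 1.05 and 1.07. Of the blood markers 3 of 6 passed, in both directions: Mir486 and Mir223 were lower in replicate 2 (ratios 0.587 and 0.854) and Mir150 was higher (1.56). The summed ratio of the blood list was 0.947. Of the 2 detected neural markers 1 passed, with a summed ratio of 0.738 over the list. The part of these lists in the miR-181 differences was not tested.

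**Figure D5:**
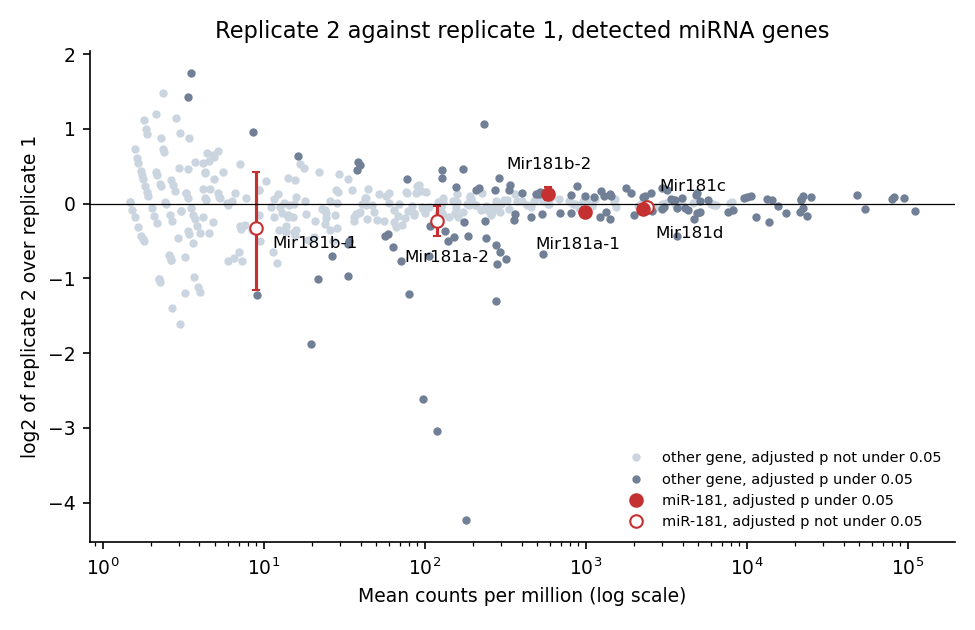
log2 of replicate 2 over replicate 1 against mean CPM (log scale) for the 419 detected miRNA genes, with the miR-181 loci in red with exact 95% intervals, filled where the exact binomial adjusted p was under 0.05. The 6 loci lie between ratios of 0.800 and 1.10, among the other genes of like level.

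The strand opposite the members held almost nothing. Mir181a-2 had 1 opposite-strand count in replicate 1, below the limit of 3 that a count of 0 allows, and the other members had 0 in both libraries. Reads from Gm26936, Nr6a1 and Gm44144, which are annotated opposite the members, were therefore not detectable at these hairpins. Reads from same-strand transcripts (Gm4258, A430106G13Rik and Nanos3) cannot be told from miRNA reads in these counts. This bears most on Mir181b-1, which lies in an exon of A430106G13Rik and had 183 and 16 counts.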

How the data were processed

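Values deposited by the authors are raw counts of reads for each miRNA gene, on mm10 with GENCODE M4 (per the notes beside the files). Aligner and counting tool: not given in the sources used here. Column 2 was taken as both strands, since columns 3 and 4 added up to column 2 for every gene. Column 3 was taken as own strand and column 4 as opposite strand, which that sum cannot tell. Column 3 held the larger total, 18467499 against 889139 counts in replicate 1 and 2017294 against 94565 in replicate 2. Own-strand counts were used. Summary rows for reads on no gene (68.0% of all reads in replicate 1 and 58.6% in replicate 2) stayed out of totals and tests. Gene IDs were matched to GENCODE M21, and sequences came from RefSeq on GRCm38.p6; the Mir181c hairpin was neither searched nor printed.

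Counts were scaled to 1000000 per library (CPM). Intervals are exact 95% Clopper-Pearson or binomial, and hold counting error alone. PCR copies were not marked by molecular identifiers, so copies of a molecule count as separate reads and the intervals may be too narrow even for that. The library test used scipy 1.17.1 in Python 3.11.15. It was checked on simulated counts that held counting error alone, with planted changes larger than those of the members. That check does not cover spread between libraries or differences as small as the members'. edgeR 4.0.16 and DESeq2 1.42.0 gave alternative scalings and, for edgeR, an exact test at the common dispersion. Multi-locus genes were marked by a symbol ending in a hyphen and 1 digit. Named genes were the 6 members, the listed cluster and marker genes, and the 2 detected genes next above and below each member in mean CPM. Members and lists were chosen with earlier results of these data known. Other alternatives were counts of both strands, other detection limits and pseudocounts, each replicate left out, no filter on low counts, and the family without multi-locus members.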

Additional observations from a re-analysis of the deposited data

How the results depend on the processing

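The family's share of miRNA counts was 0.639% in the main analysis, 0.610% with counts of both strands, whose totals are larger, and 0.468% without the 4 multi-locus members. It ranged from 0.627 to 0.650% when either replicate was left out. edgeR's exact test called 0 members and 4 genes in all, each of the 4 also past 2-fold, against 3, 123 and 11 with the exact binomial test; its dispersion (a biological coefficient of variation of 17.9%) already holds the difference between these libraries. The exact binomial test called 3 members with each of 4 other settings, beside 123 of 419 genes with TMM, 124 of 419 with DESeq2 scaling, 128 of 428 with counts of both strands and 114 of 783 with no filter on low counts. No member's ratio changed direction under any of the alternatives run. All 15 pairs stayed larger than the spread with counts of both strands and with pseudocounts of 0.5 and 5. With either replicate left out the library test and the spread of the ratios could not be computed; the ratio of Mir181c and Mir181d to the 4 multi-locus loci then ran from 1.44 to 1.47 on the log2 scale. No paired analysis was possible because there was 1 group. Depth limits Mir181b-1 most, with 16 counts in replicate 2.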

Other observations

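Marker miRNAs of cell types in which the family is known give a scale for its level. Of the 7 genes on the blood list 6 were in the table and all 6 were detected, while Mir142 was not found there by that symbol. Their sum, which leaves out Mir142, was 1480 CPM in replicate 1 and 1402 CPM in replicate 2. The red cell miRNA Mir451a made up 835 and 829 CPM of it. The miR-181 loci summed to 6504 and 6269 CPM, above the blood list in both libraries. Mir223, a marker of myeloid cells, had 255 and 218 CPM in replicates 1 and 2, and Mir150, a marker of mature lymphocytes, at 12.7 and 19.8 CPM. Mir126a, from endothelial cells, stood at 79505 and 84700 CPM, far above every miR-181 locus. Which cells of the heart hold the miR-181 reads was not tested, and these sums compare counts of different genes.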
